A study of Mus musculus with 25 samples.

Results

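Split DamID (SpDamID) marks DNA where 2 proteins meet, and the fragments described here are those marked by every Notch1 (N1) pair tested and by no Mef2c pair. They were selected on measured values, namely presence in the deposited SpDamID lists. A fragment was taken when the same chromosome, start and end stood in the N1/RBP, N1/MAML, N1/p300 and N1/N1 lists and in neither the Mef2c/MAML nor the Mef2c/p300 list. This gave 320 of the 96405 distinct fragments on the 19 autosomes and X. They are 5.58% of the 5730 fragments that all 4 N1 lists hold. The other 5410 also lie in a Mef2c list: 2415 in Mef2c/MAML only, 91 in Mef2c/p300 only and 2904 in both. Of the 320 fragments, 4 lie in a 75 kb interval of chromosome 2 (mm9) taken as the Notch1 locus, and values are given with and without them. On chromosome 14, 3 fragments that start at 26736779, 26876541 and 27016155 have the same length, 584 bp, and the same scores in all 4 lists. Whether they are copies of a repeated sequence was not tested, and counting them once leaves 318 fragments.

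All libraries were made from mK4 cells, a line established from the mesenchyme of the embryonic mouse kidney. In each SpDamID group the -D part of the Dam methylase was fused to N1 or Mef2c and the -AM part, with Ert2, to the partner, which gave N1-D/RBP-AM-Ert2, N1-D/MAML-AM-Ert2, N1-D/p300-AM-Ert2, N1-D/N1-AM-Ert2, Mef2c-D/MAML-AM-Ert2 and Mef2c-D/p300-AM-Ert2. The first 3 pairs have 3 libraries each, N1/N1 has 2 and each Mef2c pair has 1, and 3 Dam libraries served as the control of every list. Strain labels differ for 1 N1/N1 library (CD2) and the Mef2c/MAML library (CD3) from the CD1 of the rest. FAIRE lists, which hold open chromatin, come from the 3 libraries labelled N1wt, and the N1 ChIP list from 1 ChIP and 1 input library. The series also holds 3 libraries labelled Control FAIRE and 1 labelled as the input of N1wt FAIRE. The N1 SpDamID and FAIRE lists pool their libraries, and each Mef2c list rests on 1 library of its pair. So no value below has a replicate error, and the depth of each library is unknown. No difference between classes was tested over samples, because each class has 1 value per list.

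Notch is a membrane receptor that is cleaved when a ligand on a neighbouring cell binds it. Its freed intracellular part enters the nucleus and joins RBP, the DNA-binding protein of the pathway, and MAML, a co-activator that bridges the pair. MAML in turn recruits p300, a histone acetyltransferase. At paired RBP sites, 2 such complexes can sit side by side as a dimer, which the N1/N1 pair was built to read. Mef2c is a MADS-box transcription factor that can also work with MAML and p300. In the developing kidney, Notch signalling takes part in the patterning of the nephron.

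The SpDamID score is the authors' own value for a complex over Dam, and it is a whole number of unstated scale. It is compared below through its percentile within its own list, from 0 to 100. These scores chose the fragments and are given as a description. The 320 fragments had a median N1/RBP score of 470.5 (lowest 22, highest 833), a median N1/p300 score of 521.5 (10 to 817) and a median N1/N1 score of 447.5 (9 to 838). Each of these medians lay in the upper part of its list, at percentile 76.4 for N1/RBP, 81.0 for N1/p300 and 78.7 for N1/N1. N1/MAML stood lower, with a median score of 339 (6 to 852) at percentile 45.6. Against the median of the whole list, 180 of the 320 fragments (56.2%) scored lower for N1/MAML, 84 for N1/RBP, 70 for N1/p300 and 62 for N1/N1.

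Over the 5410 fragments that carry Mef2c, N1/MAML also had the lowest median percentile of the 4, though not in every part of them. The lists differ in length, from 16547 fragments for N1/MAML to 31938 for N1/N1, and the part of length was not tested. In the 320, N1/MAML gave the lowest of the 4 percentiles in 170 fragments (53.1%) and the highest in 23. Among the 5410 fragments with Mef2c it was lowest in 37.3%, more often than any other list. It was highest in 20.5% of them, against 19.6 to 38.0% for the other lists. The median N1/MAML score of these 5410 fragments was 493, at percentile 72.1. Their medians for the other pairs were 509 for N1/RBP (percentile 83.2), 503 for N1/p300 (78.2) and 447 for N1/N1 (78.7). The 91 fragments with Mef2c/p300 but no Mef2c/MAML had a still lower N1/MAML median, 249. Those with Mef2c/MAML only had 503, at percentile 73.7, which was above their N1/p300 (72.1) and N1/N1 (68.2) percentiles. In the plot of scores by complex, the box for N1/MAML is the only one of the 320 fragments whose median falls under the dashed line of its list.

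**Figure D1:**
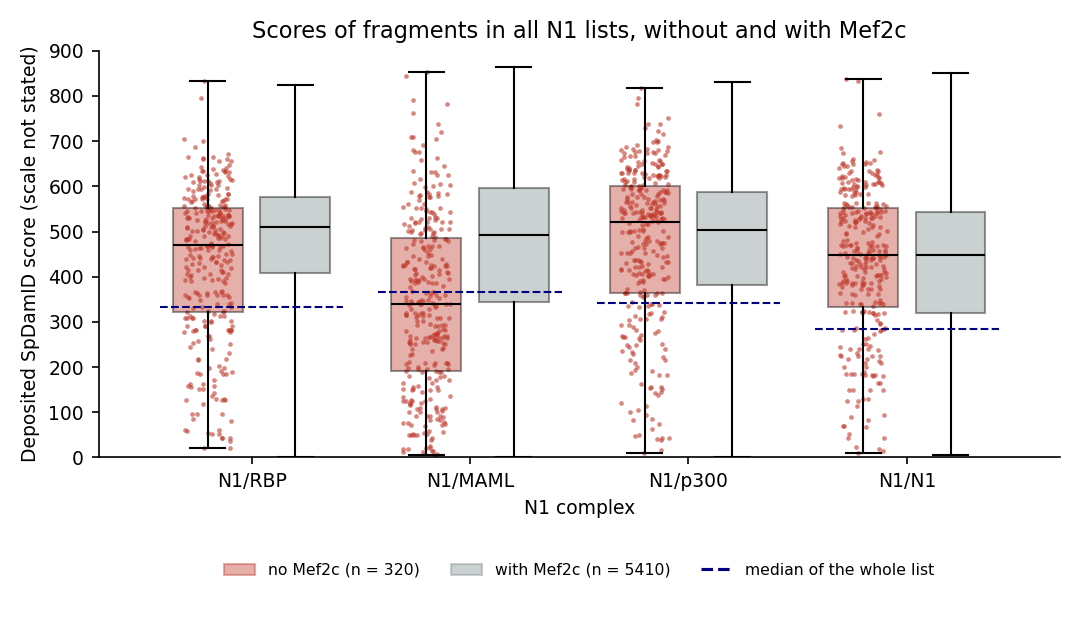
Deposited SpDamID score (vertical axis, scale not stated) in each N1 list for the 320 fragments without Mef2c (red boxes and points) and the 5410 with Mef2c (grey boxes). Boxes span the quartiles with the median as a line, whiskers reach the lowest and highest score, and dashed lines are the medians of the whole lists; the red N1/MAML median of 339 lies under the grey one of 493.

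The 4 scores of a fragment often differed widely. The gap between its highest and lowest percentile had a median of 52.1 points (quartiles 35.0 and 69.4), against 39.4 points for fragments with Mef2c. Only 84 of the 320 fragments (26.2%) stood above percentile 50 in all 4 lists, against 47.5% of those with Mef2c. Above percentile 90 in all 4 lists there were 7 (2.19%), or 4 without the Notch1 locus (1.27%), against 330 of those with Mef2c (6.1%).

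At the edge of the rule, the lowest members had low scores in most lists. Scores are given below by the partner of N1. The lowest fragment by mean percentile, on chromosome 6 from 128084127 to 128084814, scored 198 with RBP, 164 with MAML, 38 with p300 and 90 with N1. The next lowest, on chromosome 2 from 172265667 to 172266342, kept an N1/RBP score of 450 beside scores of 15, 49 and 15 for N1/MAML, N1/p300 and N1/N1. Above these stood fragments on chromosome 10 (76111048 to 76111383), chromosome 1 (77512346 to 77512869) and chromosome 1 again (173044087 to 173044598), whose N1/RBP scores were 60, 421 and 60.

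Just outside the rule lay 1928 fragments in 3 N1 lists and no Mef2c list, and the missing list was N1/MAML, the shortest of the 4, for 1519 of them (78.8%). The 5 highest ranked of these lie on chromosome 4 (118219413 to 118221473), chromosome 1 (83087348 to 83087951), chromosome 14 (122223907 to 122225127), chromosome 8 (37227140 to 37227760) and chromosome 13 (104061678 to 104062738). Their N1/p300 scores were 710, 700, 649, 660 and 684. The first lacks N1/N1 and the others lack N1/MAML.

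On the Mef2c side of the rule, 9 fragments of all 4 N1 lists were left out by a Mef2c score of 5 or less. The best ranked of them, on chromosome 8 from 123432911 to 123433495, scored 604 with RBP, 444 with MAML, 682 with p300 and 522 with N1, against a Mef2c/MAML score of 4. At the other end, the 5 best ranked fragments of all N1 lists with Mef2c had Mef2c/MAML scores of 167, 601, 642, 637 and 550. They lie on chromosome 2 (26318173 to 26319926), chromosome 15 (13139868 to 13140308), chromosome 7 (127895332 to 127895801), chromosome 15 (13140309 to 13140643) and chromosome 3 (137215733 to 137216281). A fragment missing from a list has no deposited score, so absence of Mef2c means only that the fragment did not enter a list drawn from 1 library.

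The Notch1 locus held the 3 highest ranked fragments. At 26315080 to 26316404 the scores were 833 with RBP, 852 with MAML, 817 with p300 and 838 with N1. At 26320207 to 26320456 they were 795, 845, 795 and 832 in the same order. At 26316842 to 26317945 they were 705, 792, 751 and 761. None of the scores of these 3 fragments was under 705. The fourth, 26316405 to 26316630, is only 226 bp long and differed between lists, with 130 with RBP, 721 with MAML, 421 with p300 and 649 with N1.

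These 4 fragments lie within 5377 bp at one end of a locus that the lists mark more widely. N1/N1 had 16 fragments in the interval, N1/MAML 14, and N1/RBP and N1/p300 12 each, and the last of these fragments ends at 26372188. Mef2c/MAML had 9, of which the 2 nearest to these fragments scored 167 and 119, and Mef2c/p300 had 1. All 4 fragments overlapped Notch-dependent FAIRE, whose 4 regions in the interval, from 26314689 to 26321173, had MACS scores of 457.57 to 2467.42. All 4 were also N1 ChIP regions with the same ends, at ratios of ChIP to input of 163, 30.1, 14.5 and 43.3 in order of position. The N1 fusions carry N1 sequence themselves, and whether DNA of the fusions adds to the signal here was not tested. The FAIRE libraries are labelled N1wt, and the ChIP read a myc tag on N1. Whether any introduced N1 DNA adds to those signals here was also not tested.

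**Figure D2:**
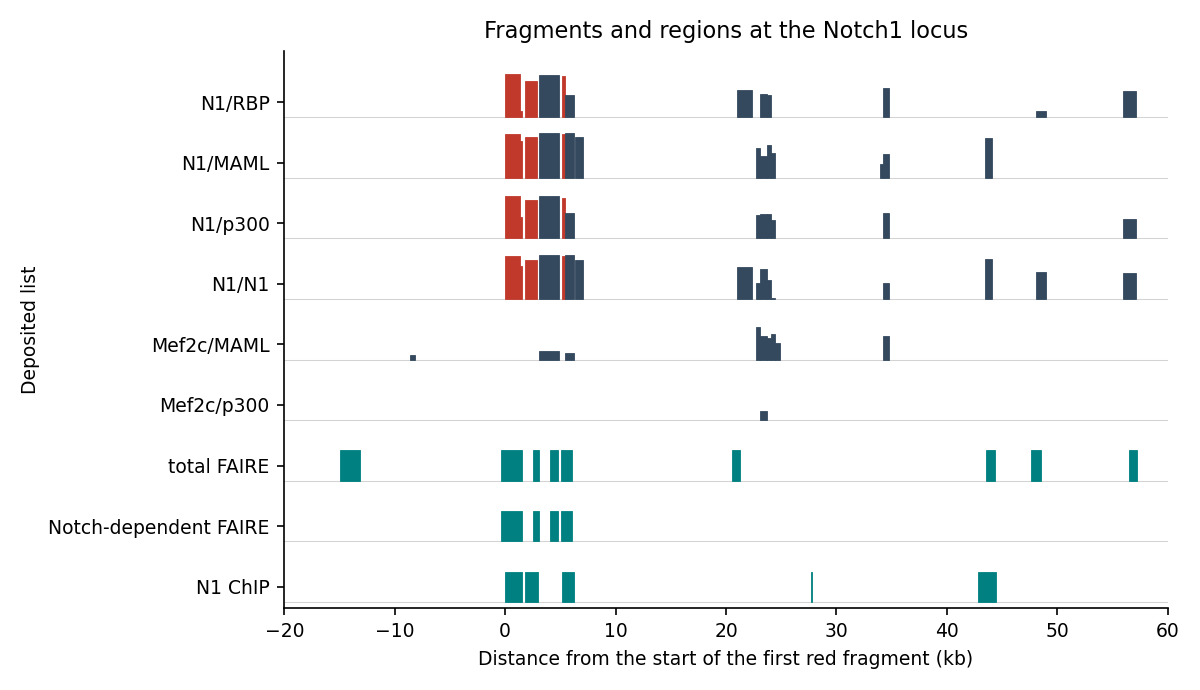
Map of the deposited lists at the Notch1 locus, against distance in kb from the start of the first red fragment. Bar height in the 6 SpDamID rows is the score on a scale from 0 to about 1000, red bars are the 4 fragments in all N1 lists and no Mef2c list, and green bars are FAIRE and ChIP regions drawn at a fixed height; the 4 Notch-dependent FAIRE regions all lie under the red fragments and their neighbours.

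Outside the Notch1 locus the best ranked fragment was on chromosome 8, 125375706 to 125376106. Paired with RBP, MAML, p300 and N1, N1 scored 665, 709, 739 and 734 there, and the nearest Mef2c fragment lay 31437 bp away. The fragments abutting it on both sides, 125375418 to 125375705 and 125376107 to 125376625, belong to the same set, with N1/RBP scores of 509 and 660. All 3 lay in total FAIRE, and the outer 2 were N1 ChIP regions. A second run of 3 lay on chromosome 9, where 20616859 to 20617312 scored 631, 680, 677 and 580 in the same order. It overlapped neither FAIRE nor ChIP, and its nearest Mef2c fragment was 21437 bp away.

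The other 8 of the leading 10 outside the Notch1 locus showed no common pattern in FAIRE. On chromosome 11, 82007644 to 82008155 scored 612 with RBP, 675 with MAML, 655 with p300 and 582 with N1 outside FAIRE. On chromosome 15, 85916196 to 85916575 scored 579, 632, 657 and 621 in that order and lay in both total FAIRE and N1 ChIP. The next are chromosome 1, 93252570 to 93253367, where N1 with RBP scored 665, and chromosome 9, 96761059 to 96761709, with 643 and Notch-dependent FAIRE. Also on chromosome 9 were 102640165 to 102640978, scoring 662 with RBP and abutted by a Mef2c fragment, and 43833964 to 43834805, with 660 and Notch-dependent FAIRE. Chromosome 15, 59142654 to 59143261, scored 687 for N1/RBP but 471 for N1/N1. The last, chromosome 2 from 25025919 to 25026793, scored 701, 552, 630 and 635 and was not in FAIRE, although 2 further fragments of the set within 7307 bp were. Of these 10 fragments, 4 lay in total FAIRE.

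**Figure D3:**
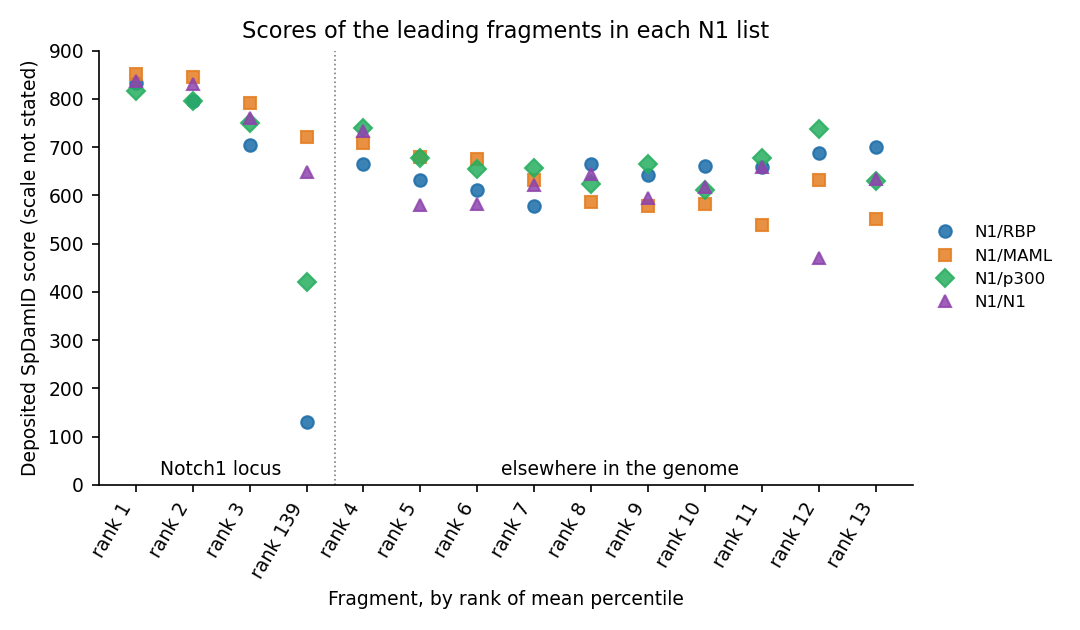
Deposited scores in the 4 N1 lists (vertical axis, scale not stated) of the 4 fragments at the Notch1 locus and the 10 best ranked elsewhere, ordered by rank of mean percentile. The fragments of rank 1 to 3 score from 705 to 852, and the fragment of rank 139 runs from 130 for N1/RBP to 721 for N1/MAML.

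Most of the 320 had no other fragment of the set within 5000 bp. With gaps of up to 5000 bp joined, the 320 formed 302 loci, of which 289 held 1 fragment, 9 held 2, 3 held 3 and 1, at Notch1, held 4. Among the loci of 2, chromosome 15 (85916196 to 85917013) had both fragments in N1 ChIP. Others were chromosome 10 (76131785 to 76132787 and 76111048 to 76111840), chromosome 13 (98364584 to 98367142), chromosome 4 (62399992 to 62404635) and chromosome 7 (28120246 to 28121508).

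The rule removed Mef2c from the fragment itself, and the surroundings were read separately. Of the 320, 95 (29.7%, exact Clopper-Pearson 95% interval 24.7 to 35.0%) abutted a Mef2c fragment, against 20.8% of all SpDamID fragments that abut another Mef2c fragment. A Mef2c fragment lay within 1000 bp of 147 (45.9%, 40.4 to 51.6%), against 42.3% of all fragments, and within 5000 bp of 201 (62.8%, 57.3 to 68.1%), against 61.5%. Fragments of all N1 lists that carry Mef2c had another one within 1000 bp in 68.7% of cases (67.5 to 70.0%) and within 5000 bp in 81.6% (80.5 to 82.6%). N1 neighbours were common: 228 (71.2%) of the 320 had another N1 fragment within 1000 bp, against 39.5% of all fragments, and 170 (53.1%) abutted one, against 19.8%. They were also common in the nearest classes. Fragments of all N1 lists with Mef2c had 76.5% within 1000 bp and 47.5% abutting. Those of 3 N1 lists without Mef2c had 63.6 and 37.9%. The intervals given here, like all below, cover counting error only, and neighbouring fragments are not independent. For the 320, the shares with Mef2c within 1000 and 5000 bp thus lie near those of all fragments and below those of fragments that carry Mef2c.

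**Figure D4:**
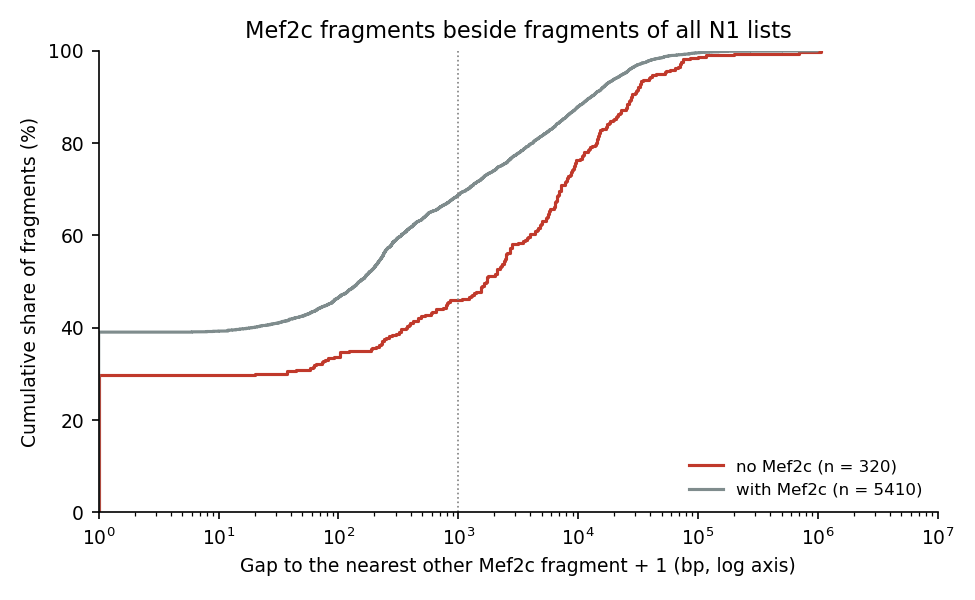
Cumulative share of fragments (vertical axis, percent) by the gap in bp to the nearest other Mef2c fragment (horizontal log axis, with 1 added), for the 320 fragments without Mef2c (red) and the 5410 with it (grey). At the dotted line of 1000 bp the curves stand at 45.9% and 68.7%.

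Open chromatin was read from the total FAIRE list of N1wt cells, which the choice of fragments did not use. Of the 320 fragments, 171 overlapped a total FAIRE region (53.4%, 47.8 to 59.0%), against 19.3% of all SpDamID fragments. Without the Notch1 locus the share was 167 of 316 (52.8%, 47.2 to 58.5%). Fragments of all N1 lists with Mef2c reached 60.6% (59.3 to 61.9%), a range that begins just above the upper limit for the 320, though not among fragments of 400 to 800 bp. Among fragments without Mef2c, 44.7% of those in 3 N1 lists, 31.2% in 2 and 15.5% in 1 lay in total FAIRE, and 7.26% of those in both Mef2c lists and no N1 list.

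The share in total FAIRE was higher where Mef2c lay nearby, a difference not tested over samples. With a Mef2c fragment within 1000 bp, 101 of 147 fragments lay in total FAIRE (68.7%, 60.5 to 76.1%). With none so near, 70 of 173 did (40.5%, 33.1 to 48.2%). The 2 intervals do not overlap, and leaving out the Notch1 locus gave 68.3 and 39.8%. In fragments of all N1 lists that carry Mef2c themselves, the same split by another Mef2c neighbour gave 63.5 and 54.1%. The split over all SpDamID fragments, or by N1 neighbours, is not given here, so no trait of the set is read from it. Among the 320, median lengths on the sides with and without near Mef2c were 651 and 624 bp. Median scores were 475 and 469 for N1/RBP, 309 and 348 for N1/MAML, 491 and 533 for N1/p300 and 467 and 442 for N1/N1. The part of length and score in the FAIRE difference was not tested.

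Some open regions that held one of the fragments were marked by Mef2c elsewhere. In all, 176 total FAIRE regions held one of them, and 90 of these (51.1%) also held a Mef2c fragment, against 44.1% of all total FAIRE regions and 71.0% of those with any SpDamID fragment. These 176 regions had a median MACS score of 196.31, against 156.73 over the total FAIRE list and 200.50 for regions with a fragment of all N1 lists and Mef2c. The centre of the fragment lay within 500 bp of the centre of its open region in 123 of 171 cases (71.9%), against 60.7% of all SpDamID fragments in total FAIRE and 75.6% of those in all N1 lists with Mef2c. An overlap already limits this distance.

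Notch-dependent FAIRE is a separate list of the authors, and how its regions were chosen is not stated in the labels or headers. It held 41 of the 320 fragments (12.8%, 9.35 to 17.0%), against 2.8% of all SpDamID fragments. Without the Notch1 locus it held 37 of 316 (11.7%, 8.38 to 15.8%). The share was 9.04% (8.29 to 9.83%) for fragments of all N1 lists with Mef2c and 8.56% (7.35 to 9.90%) for those of 3 N1 lists without it, and these intervals overlap that of the 320. Read within open chromatin, 41 of the 171 fragments in total FAIRE were Notch-dependent (24.0%, 17.8 to 31.1%), and 37 of 167 without the Notch1 locus (22.2%, 16.1 to 29.2%). The corresponding share was 18.4% (15.9 to 21.2%) for fragments of 3 N1 lists without Mef2c, an interval that overlaps both, 14.7% (13.5 to 16.0%) for those of all N1 lists with Mef2c, and 14.0% over all fragments.

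After the Notch1 fragments, the best ranked fragments in Notch-dependent FAIRE lay on chromosome 9, where 96761059 to 96761709 met a Notch-dependent region with a MACS score of 89.29 and 43833964 to 43834805 one with 106.61. These scores lie below the median of 132.11 over the Notch-dependent list. The 40 Notch-dependent regions that held a fragment of the set had a median of 140.50, and 18 of them (45%) also held a Mef2c fragment, against 48.2% of all Notch-dependent regions. The 41 fragments in these regions had a median N1/RBP score of 531 and a median N1/N1 score of 510, against 469 and 442 for the other 279. The N1/p300 medians were 563 and 502, and the N1/MAML medians 340 and 339. Without the Notch1 locus the medians of the remaining 37 were 513 for N1/RBP, 467 for N1/N1 and 315 for N1/MAML.

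N1 ChIP, a separate readout through a myc tag on N1, held 26 of the 320 fragments (8.12%, 5.38 to 11.7%), against 1.41% of all SpDamID fragments. The 4 at Notch1 weigh on this share, which was 22 of 316 without them (6.96%, 4.41 to 10.4%). Fragments of all N1 lists with any Mef2c pair had 5.12% (4.55 to 5.74%), which the interval for the 316 overlaps. Among them, those with Mef2c/MAML only had 7.99% (6.94 to 9.15%) and those with both pairs 2.89% (2.31 to 3.57%). Those with Mef2c/p300 only had 0 of 91, which allows a share of up to 3.97%. The interval for the 316 lies above that for both pairs, though not among fragments of 400 to 800 bp. All 26 ChIP regions had exactly the ends of the fragment. Over all SpDamID fragments, 1361 overlapped N1 ChIP, and 1361 ChIP regions held a fragment. The share with identical ends over all fragments is not given here, so no trait of the set is read from this. Of the 26, 23 (88.5%) lay in total FAIRE, against 61.8% of all SpDamID fragments in N1 ChIP and 74.4% of those in all N1 lists with Mef2c. Without the Notch1 locus it was 19 of 22 (86.4%). These counts are small, and no intervals were computed for these shares. The 4 of the 26 that lay in Notch-dependent FAIRE were those at Notch1.

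The ratio of ChIP to input is the authors' own value and its list begins at 10.0097. It had a median of 16.1 for the 22 fragments outside the Notch1 locus, from 10.2 to 93.6, against 15 over all 22306 ChIP regions. The input signal was fixed at 0.1 for 19 of the 22, and for 20102 of all 22306 regions. The highest ratio outside the Notch1 locus, 93.6, was on chromosome 6 at 52196006 to 52197463, a fragment outside FAIRE with scores of 330 with RBP, 386 with MAML, 143 with p300 and 585 with N1. Its ChIP signal was 16.4 and its input signal 0.175. Over the whole set the 5 highest ratios were 163 at Notch1, this one, 43.3 at Notch1, 32.8 on chromosome 3 (88981114 to 88981924) and 30.1 at Notch1. The chromosome 3 fragment lay in total FAIRE and scored 540 with RBP, 57 with MAML, 223 with p300 and 458 with N1. By mean percentile over the N1 lists, the 80 fragments with the highest values had 12 in N1 ChIP (15%, 8.0 to 24.7%), and the other groups of 80 had 5, 6 and 3, from the lowest values up. The intervals of those groups, 2.06 to 14.0, 2.80 to 15.6 and 0.78 to 10.6%, all overlap that of the highest. Without the Notch1 locus the highest group had 9 of 77 (11.7%, 5.49 to 21.0%), which also overlaps the intervals of the other groups.

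**Figure D5:**
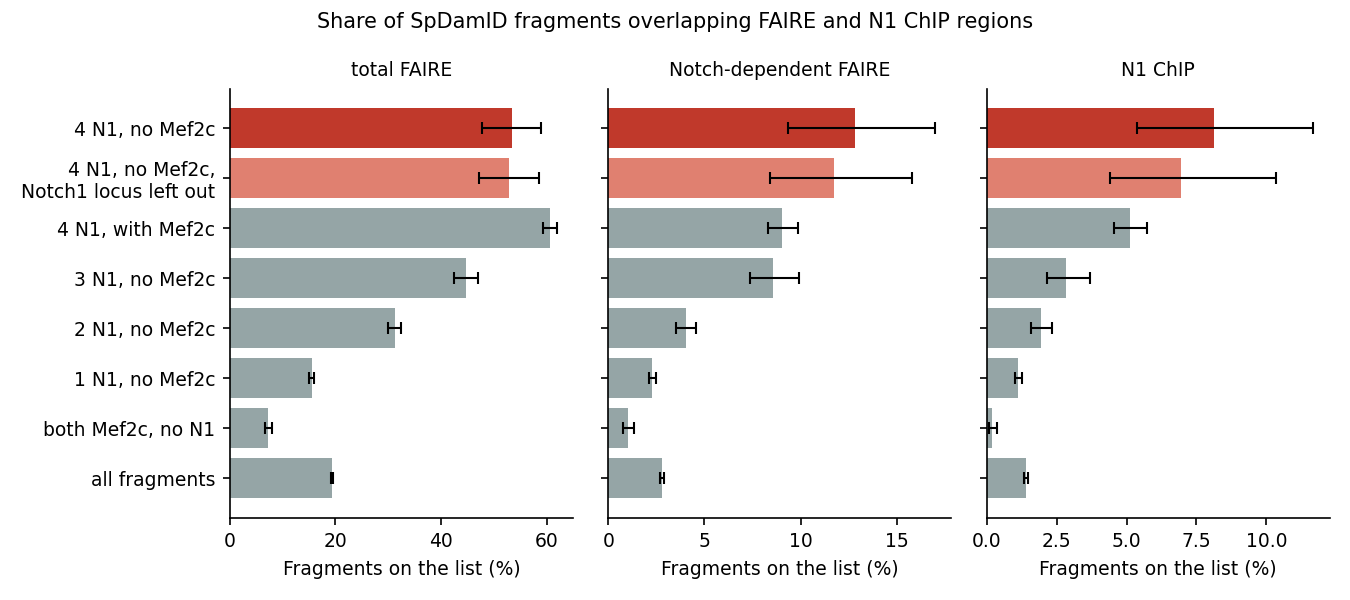
Percent of fragments that overlap total FAIRE, Notch-dependent FAIRE and N1 ChIP (horizontal axes, each from 0) by class of fragment. Bars are shares and error bars exact Clopper-Pearson 95% intervals of counting error; the set in all 4 N1 lists without Mef2c stands at 53.4, 12.8 and 8.12%.

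The strength of Mef2c gave a further axis on which to place the fragments. The 223 fragments of all N1 lists whose highest Mef2c score was 1 to 199 had a median N1/MAML score of 324 and lay in total FAIRE in 53.4% of cases (46.6 to 60.1%), both close to the 339 and 53.4% of the fragments without Mef2c. At Mef2c scores of 200 to 399 the values were 373 and 55.9% (n = 667), and at 400 and above 517 and 61.6% (n = 4520). For Notch-dependent FAIRE the order was different: 12.8% without Mef2c, then 8.52, 9.60 and 8.98%. The intervals of the first 2 of these, 9.35 to 17.0% and 5.21 to 13.0%, overlap.

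Length was a property the rule did not use directly. The 320 fragments had a median length of 633 bp (quartiles 504 and 838), against 517 bp for fragments of all N1 lists with Mef2c and 596 bp over all fragments. The 91 with Mef2c/p300 only were longer, at 766 bp. Fragments without Mef2c in fewer N1 lists were longer still, with medians of 871 bp in 3 lists, 948 bp in 2 and 960 bp in 1. Among fragments of 400 to 800 bp, 51.3% of 195 lay in total FAIRE (44.0 to 58.5%), against 58.6% with Mef2c (57.1 to 60.1%), and these intervals overlap. In that range the shares in Notch-dependent FAIRE were 11.3 and 8.19%, and those in N1 ChIP were 5.64% (2.85 to 9.87%) and 5.01%. The ChIP share with both Mef2c pairs was 3.01% (2.38 to 3.76%) in that range, within the interval of the 195. No fragment at Notch1 has a length in this range.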

How the data were processed

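The submitters' processing notes name build mm9. Per the labels' protocols, SpDamID DNA was cut with DpnI and amplified by ligation-mediated PCR. The authors deposited a score per fragment for each complex relative to Dam, with 0.999 as the lowest confidence level per the file headers, and MACS scores for FAIRE regions called in Galaxy, also per the file headers. For ChIP the authors deposited a signal for ChIP, a signal for input and their ratio, with no header. The aligner, the tool versions and the scale of the scores are not stated in the labels or headers. Initials in each list's name were read as its 2 proteins.

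FAIRE starts were shifted by 1 base, and an overlap of 1 bp or more counted. SpDamID fragments showed 0 partial overlaps. The mean percentile over the 4 N1 lists ranked fragments. The overlap and distance functions gave 0 differences from plain loops in 1200 simulated cases. Regions named are those at the Notch1 locus, the 10 leading elsewhere, the leading 5 by Notch-dependent FAIRE and by ChIP ratio, the lowest 5, the leading 5 just outside the rule on each side, and the loci with most members. Chosen after values were seen were the fragment with a Mef2c score of 4 and those of the closing observations. The members and lists were chosen with earlier results of these data known. Python 3.11.15, pandas 2.3.3 and SciPy 1.17.1 were used. Genes and DNA sequences of the fragments were not analysed here, since the annotation at hand is of another build, so the planned motif search was not run.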

Additional observations from a re-analysis of the deposited data

How the results depend on the processing

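The share in total FAIRE, 53.4%, fell outside its own counting interval in 5 of 12 alternatives: 40.5% for fragments with no Mef2c fragment within 1000 bp (39.8% without the Notch1 locus, chosen after seeing the data), 40.6% with 50% of the shorter region overlapped, 39.7% by fragment centre and 34.4% with FAIRE regions from the median score up. The share in Notch-dependent FAIRE, 12.8%, moved to 17.6% for fragments at or above the median score of each N1 list, 8.75% by fragment centre and 7.19% with regions from the median score up. The share in N1 ChIP, 8.12%, moved to 5% with regions from the median ratio up. The number of fragments, 320, became 85 at or above each median score and 173 with no Mef2c fragment within 1000 bp. The last 2 are fewer by construction. Shares with fewer regions, with 50% of the shorter region or by fragment centre could by construction only stay equal or fall. For the rest the cause was not tested. Leaving out the Notch1 locus, X or fragments outside 400 to 800 bp, or counting loci, or (added after seeing the data) counting identical fragments once, kept all 3 shares within their intervals. No paired analysis was possible because each list pools its libraries or rests on 1 library, and no result comes from a test. For the same reason no library could be left out in turn.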

Other observations

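The 320 fragments were spread over all 20 chromosomes used. Chromosome 2 held 33 of them and chromosome 11 held 30. As a share of the fragments of all N1 lists, they ran from 3.04% on chromosome 19 (8 of 263) to 10.7% on chromosome 14 (17 of 159), where 3 of the 17 share their length and all 4 scores.

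A few fragments were far longer than the rest, and 7 exceeded 2000 bp. The longest, 17349 bp on chromosome X from 131574779 to 131592127, scored 589 with RBP, 709 with MAML, 633 with p300 and 401 with N1 as the partner of N1. On chromosome 11, the fragment from 106804741 to 106811417 scored 44 with RBP against 560 with MAML, 629 with p300 and 622 with N1. None of these 7 lay in FAIRE or N1 ChIP. The share of all SpDamID fragments above 2000 bp that do is not given here, so no trait of the set is read from this.

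Some fragments had no other marked fragment of any list near them: 46 of the 320 (14.4%) had none within 5000 bp, against 27.5% of all fragments and 8.15% of those in all N1 lists with Mef2c. A further kind of surroundings, N1 fragments but no Mef2c fragment within 5000 bp, was found for 73 (22.8%), against 11% of all fragments and 10.3% of those in all N1 lists with Mef2c. For fragments of 3 N1 lists without Mef2c the 2 shares were 16.8 and 17.3%. For the 91 fragments of all N1 lists with Mef2c/p300 only they were 14.3 and 14.3%. Of the 320, the farthest from Mef2c lay on chromosome 6 from 103598971 to 103599359, 1058730 bp from the nearest Mef2c fragment. It scored 390 with RBP, 560 with MAML, 516 with p300 and 529 with N1.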
